A study of Drosophila melanogaster with 12 samples.

Results

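The Dpr and DIP families are described here in developing fly legs. Members were all gene symbols in the expression files that read dpr followed by a number, or DIP followed by a Greek letter, whatever their values. This gave 30 genes, 21 *dpr* genes and 9 *DIP* genes, of 17592 symbols found in all 6 RNA-Seq libraries. RNA-Seq and ATAC-Seq, which maps open chromatin, were made on second (T2) legs of *Drosophila melanogaster* pupae aged 20 to 28 hours from puparium formation. The eworo strain carries *ebony*[4], *white ocelli*[1] and *rough*[1] and has a large naked valley, the patch of the femur without trichomes. It was set against the wild-type strain Oregon R (OreR), whose naked valley is small. Each strain had 3 RNA-Seq libraries and 3 ATAC-Seq samples, with about 80 pupae per replicate, so every value is an average over animals and over all cell types of the leg. Each genotype is a single strain, so the 3 alleles of eworo and the rest of its genetic background cannot be told apart, and p-values measure only the spread between these libraries.

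Dpr proteins (defective proboscis extension response) and DIPs (Dpr-interacting proteins) are small cell surface proteins with immunoglobulin domains. A DIP on one cell binds Dpr proteins on another, and each DIP accepts only certain Dpr partners, so that the families form binding groups. They are best known from neurons, where matching pairs help axons to find synaptic partners and keep the chosen cells alive. In the leg, *DIP-alpha* is known from motor neurons and its partner *dpr10* from the muscles they innervate. A comparable network is formed by the Beat and Side proteins, another set of surface receptors and ligands through which motor axons recognise muscles.

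Most members were scarce in the legs. Levels are in FPKM (fragments per kilobase of transcript scaled to the mapped fragments of the library), which corrects for transcript length. With the mean of the 3 libraries, 10 of 30 members lay above 1 FPKM in eworo and 11 in OreR, 9 of them in both strains. This is 30.0% of the members, beside 49.1% of all symbols above this level in both strains. Of the 9 *DIP* genes, 5 were above 1 FPKM in each strain, of which *DIP-alpha* and *DIP-theta* only through entries shared with another gene, as was *DIP-eta* in OreR. Of the 21 *dpr* genes, 5 were above it in eworo and 6 in OreR. The study used 1 FPKM as the limit for a gene that is likely expressed. In whole legs fewer cells of a type and less RNA per cell cannot be told apart, so a low mean does not say that a gene is low in each cell that uses it.

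Many of these values depend on how Cufflinks grouped genes. It built gene models separately in every library and placed some overlapping or neighbouring genes in a single entry, with 1 value for the whole entry. *DIP-alpha* was joined with *CG2875* in all 6 libraries, and *DIP-theta* shared its entry with a non-coding RNA gene in each library. *DIP-epsilon*, *DIP-eta*, *dpr3* and *dpr10* were joined with a neighbour in some libraries only. With entries that name a member alone, 8 members were above 1 FPKM in eworo, 8 in OreR and 6 in both. A second set of values, from Cuffdiff, holds 1 FPKM per strain over its 3 libraries under a common gene model, and it placed 11 members above 1 FPKM in each strain and 10 in both. Cuffdiff has joint entries too, and among these members *DIP-alpha* was joined with *CG2875* and *dpr3* with *CG4259*. The joint entry of *dpr3* had 3.79 FPKM in eworo legs, against 1.01 FPKM in OreR legs.

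**Figure D1:**
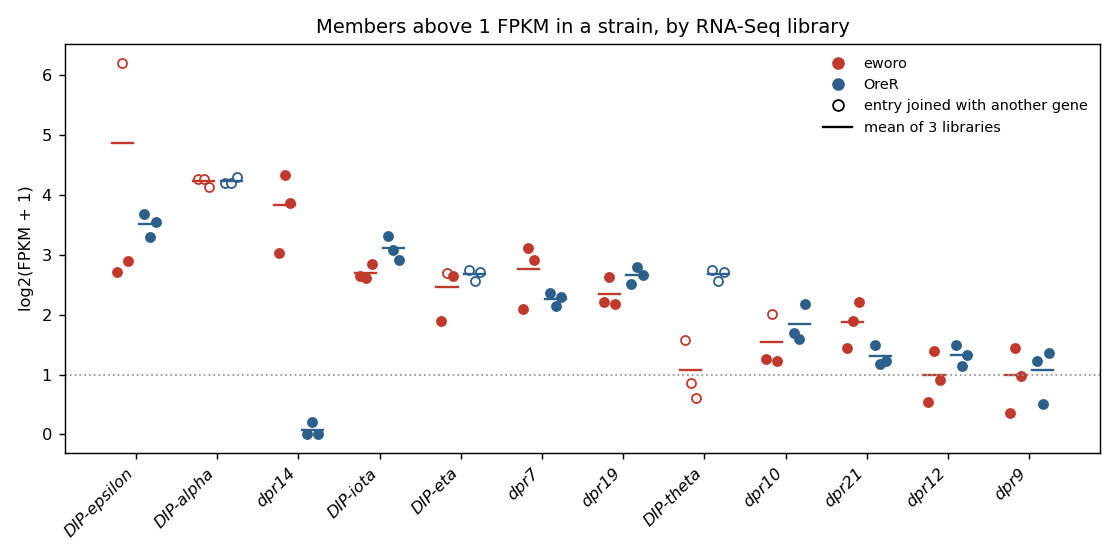
FPKM of the 12 members with a mean above 1 in either strain, on a log2(FPKM + 1) scale, with the 3 eworo libraries (red) left of the 3 OreR libraries (blue). Open points are values of entries that also hold another gene, bars are means of 3 libraries, and the dotted line marks 1 FPKM. The 3 *dpr14* values of eworo lie far above those of OreR, and the high eworo point of *DIP-epsilon* is an entry joined with another gene.

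*dpr14* had the largest fitted difference between the strains among the compared members. This gene (FBgn0029974), one of the Dpr genes of the *DIP-epsilon* and *DIP-zeta* binding group, lies on chromosome X (Release 6) between positions 7903704 and 7908286. *dpr14* had 7.13, 19.1 and 13.5 FPKM in the eworo libraries, against 0, 0.149 and 0 FPKM in the OreR libraries. All 3 eworo libraries lay above all 3 OreR libraries, and *dpr14* had its own entry in each. On the log2(FPKM + 1) scale the difference was 3.67 ± 0.36 (SE, n = 3 each), with an adjusted p of 0.00838 by limma with Benjamini-Hochberg adjustment over all 4848 entries compared. The exact permutation test over the 6 libraries gave a two-sided p of 0.1, the smallest that 3 against 3 allows. The call was lost without eworo replicate 3 (3.60, adjusted p = 0.056 by limma) and with zeros taken as missing (3.53, adjusted p = 0.0581 by limma), while the direction held in both.

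The values of 0 need care, because Cufflinks sometimes lists a transcribed gene at 0. Among single-gene names listed at 0 in 2 or 3 OreR libraries and above a mean of 1 FPKM in eworo, 163 had a Cuffdiff value, and 130 of these (79.8%) were above 1 FPKM in OreR by Cuffdiff. *dpr14* was not one of them, since Cuffdiff gave it 16.9 FPKM in eworo legs, against 0.226 FPKM in OreR legs. The limits deposited beside the Cufflinks values ran from 6.25 to 8.01 FPKM in eworo replicate 1, from 18.1 to 20.1 FPKM in replicate 2 and from 11.1 to 16.0 FPKM in replicate 3. In OreR replicate 2 they ran from 0.0888 to 0.210 FPKM. The spread among the eworo libraries was therefore wider than these limits.

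The genes beside *dpr14* were present in both strains. *bys*, 61 bp away, had 21.2, 18.3 and 16.1 FPKM in eworo legs, against 19.4, 18.5 and 18.3 FPKM in OreR legs. *CG1444* (*spidey*), 645 bp away on the other side, had 14.3 and 12.3 FPKM in the first 2 eworo libraries, against 15.6, 14.3 and 14.5 FPKM in OreR legs. Its value in eworo replicate 3, 18.8 FPKM, is an entry joined with *snz*. *snz*, 3803 bp from *dpr14*, had 4.74 and 5.64 FPKM in the eworo libraries with an entry of its own, against 10.7, 10.8 and 10.5 FPKM in OreR legs. The values of *bys* overlapped between the strains, while the own entries of *CG1444* and *snz* in eworo lay below those of OreR. Neither gene had 1 entry name in all libraries, so they did not enter the main comparison.

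*dpr20*, another Dpr gene of the same binding group, is the opposite case. It lies on chromosome 3L from 852720 to 857248 and had 0.419, 0.622 and 0.659 FPKM in eworo, while it was listed at 0 in all 3 OreR libraries. Its mean was under the limit of 1 FPKM, so it did not enter the main comparison. Without that limit it passed the threshold with a difference of 0.64 on the log2(FPKM + 1) scale (adjusted p = 0.0192 by limma over 9507 entries). Cuffdiff gave *dpr20* 0.510 FPKM in eworo legs, against 0.534 FPKM in OreR legs, so the difference rests on the listed zeros. *dpr16* was listed at 0 in all 6 libraries, and Cuffdiff gave it 0.111 FPKM in eworo legs, against 0.189 FPKM in OreR legs.

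**Figure D2:**
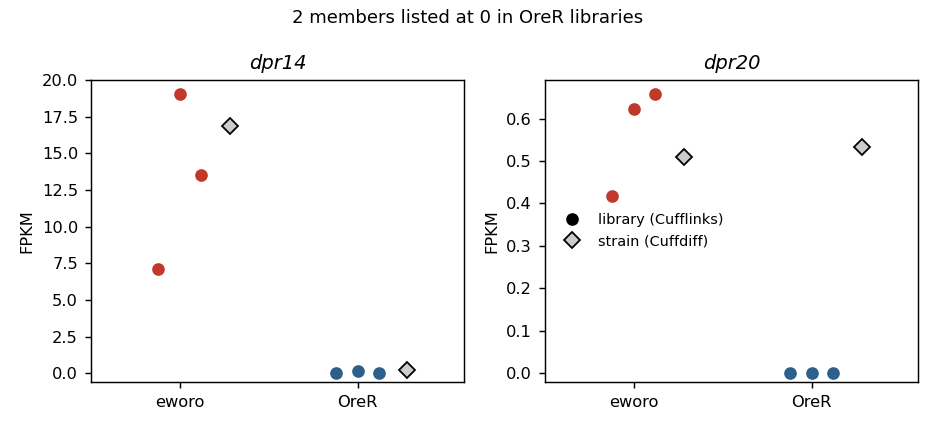
FPKM of *dpr14* (left panel) and *dpr20* (right panel) per Cufflinks library (circles) and per strain by Cuffdiff (grey diamonds), with eworo left of OreR. For *dpr14* both sources are high in eworo and near 0 in OreR, whereas for *dpr20* Cuffdiff gives 0.510 FPKM in eworo legs, against 0.534 FPKM in OreR legs.

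Of the 30 members, 8 had one entry name in all libraries and a mean above 1 FPKM and could be compared, of which *DIP-alpha* only together with *CG2875*. One of the 8, *dpr14*, was higher in eworo and 0 were lower. Of all 4848 entries, held to the same limit, 1.73% were higher and 0.908% were lower (2.64% in either direction). The limit applied to the mean over all libraries, and *dpr14* met it only through eworo, since its OreR libraries averaged 0.0498 FPKM. *dpr20*, also listed near or at 0 in OreR but low in eworo, was left out by this limit. The count of 1 in 8 thus depends on the limit. At an unadjusted p under 0.05 by limma 2 members passed, *dpr14* and *DIP-iota*, beside 15.3% of all entries. The libraries of the 2 strains did not overlap for the same 2 genes, beside 23.2% of all entries. *dpr14* was the one with eworo above (12.9% of all entries) and *DIP-iota* the one with eworo below (10.4% of all entries). The median difference of the 8 was -0.05 on the log2(FPKM + 1) scale, against -0.01 over all entries.

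**Figure D3:**
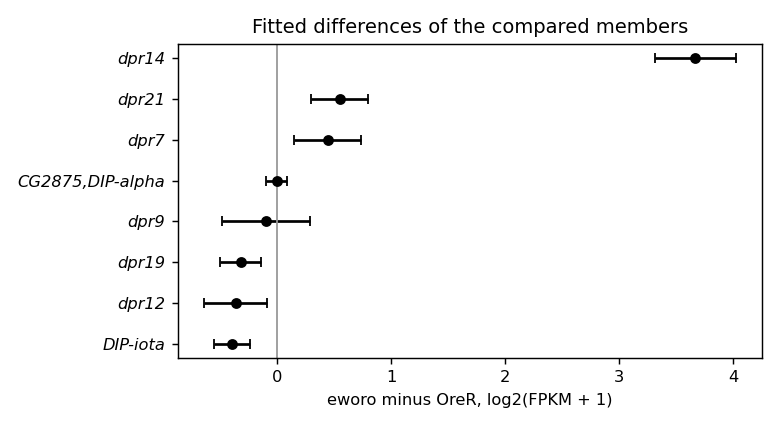
Fitted difference of each of the 8 compared members, eworo minus OreR on the log2(FPKM + 1) scale, with bars of 1 standard error (n = 3 libraries per strain). *dpr14* lies at 3.67, and the other 7 lie between -0.40 and 0.55.

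*DIP-iota*, a receptor of the group that binds Dpr1 to Dpr5, was the compared member with the lowest fitted difference. It had 5.24, 5.13 and 6.15 FPKM in eworo legs, against 8.98, 7.42 and 6.49 FPKM in OreR legs. The groups did not overlap, with a gap between the eworo library at 6.15 and the OreR library at 6.49 FPKM. The difference of -0.40 ± 0.16 (SE) had an adjusted p of 0.319 by limma and did not pass. Cuffdiff gave 4.95 FPKM in eworo legs, against 7.02 FPKM in OreR legs.

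*dpr21* and *dpr7* had their highest values in eworo. *dpr21*, a Dpr gene of the *DIP-beta* group, had 1.72, 2.70 and 3.63 FPKM in eworo legs, against 1.81, 1.27 and 1.34 FPKM in OreR legs. Its difference of 0.55 ± 0.25 (SE) had an adjusted p of 0.351 by limma. *dpr7*, which lies on chromosome 4 and was placed in no binding group here, had 3.26, 7.65 and 6.50 FPKM in eworo legs, against 4.12, 3.40 and 3.92 FPKM in OreR legs. The difference of 0.44 ± 0.30 (SE) had an adjusted p of 0.489 by limma. In both genes the lowest eworo library lay within or under the OreR range.

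*dpr19*, *dpr12* and *dpr9* did not pass either. *dpr19*, of the *DIP-epsilon* group, was the most abundant *dpr* gene of OreR, with 3.61, 5.15 and 3.52 FPKM in eworo legs, against 4.72, 5.94 and 5.29 FPKM in OreR legs (adjusted p = 0.431 by limma). *dpr12*, known as the partner of *DIP-delta* in the fly's mushroom body, had 0.462, 1.63 and 0.882 FPKM in eworo legs, against 1.80, 1.21 and 1.499 FPKM in OreR legs (adjusted p = 0.530 by limma). *dpr9*, of the *DIP-beta* group, had 0.285, 1.73 and 0.958 FPKM in eworo legs, against 1.33, 0.428 and 1.56 FPKM in OreR legs (adjusted p = 0.901 by limma). The strains overlapped in all 3 genes, and *dpr9* and *dpr12* were lowest in eworo replicate 1.

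This library was low for many members. eworo replicate 1 held the lowest value of 14 of the 27 members with a single lowest library, and eworo replicate 2 held the highest of 11 of the 29 members above 0. The members are long genes, with a median span of 27274 bp against 2160 bp for all 13962 protein-coding genes. Among the 940 compared entries with the longest spans (at least 7452 bp) the log2 values deviated from the mean of their entry by a median of -0.37 in eworo replicate 1, 0.18 in replicate 2 and -0.15 in replicate 3. The medians were 0.12, 0.01 and 0.26 in OreR replicates 1 to 3. Among the 939 compared entries with the shortest spans they were 0.23, -0.14 and 0.22 in eworo and -0.07, -0.04 and -0.16 in OreR. The part of these shifts in the members' values was not tested, and this holds for *dpr14* as well, with its span of 4583 bp. Without eworo replicate 1 the difference of *dpr9* turned to 0.18 on the log2(FPKM + 1) scale (adjusted p = 0.863 by limma).

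The remaining members above 1 FPKM were left out of the main comparison, since their entry names differed between libraries. With every symbol taking the value of its entry (9555 symbols tested by limma), the adjusted p was 0.853 for *DIP-epsilon*, 0.640 for *DIP-eta*, 0.102 for *DIP-theta* and 0.636 for *dpr10*. *DIP-epsilon*, a receptor for several Dpr proteins including Dpr14 and Dpr19 (chromosome 2L from 6377771 to 6411326), had 5.55, 72.7 and 6.40 FPKM in eworo legs, against 11.9, 8.77 and 10.7 FPKM in OreR legs. The value of 72.7 is an entry joined with *CG42369*, a gene inside the *DIP-epsilon* span that had 39.0 to 86.8 FPKM in the other 5 libraries. The other 2 eworo libraries lay below all 3 OreR libraries, and Cuffdiff gave 6.31 FPKM in eworo legs, against 9.02 FPKM in OreR legs. *dpr10*, the muscle partner of *DIP-alpha*, had 1.40, 3.01 and 1.35 FPKM in eworo legs, against 2.22, 2.02 and 3.53 FPKM in OreR legs. The eworo value of 3.01 is joined with *CG6628* and has limits from 0 to 6.84 FPKM, and Cuffdiff gave 2.01 FPKM in eworo legs, against 2.67 FPKM in OreR legs.

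For *DIP-alpha* no level of its own can be given. The entry it shares with *CG2875* had 18.2, 18.2 and 16.5 FPKM in eworo legs, against 17.3, 17.4 and 18.7 FPKM in OreR legs (difference -0.01 ± 0.09, adjusted p = 0.979 by limma), and Cuffdiff joined the 2 genes too. *DIP-eta* had 2.73, 5.49 and 5.26 FPKM in eworo legs, against 5.68, 4.88 and 5.58 FPKM in OreR legs, where all 3 entries also hold *DIP-theta*. *DIP-theta* had 1.97, 0.821 and 0.518 FPKM in eworo, below the 3 joined OreR values. Cuffdiff kept *DIP-theta* and *DIP-eta* apart, but its *DIP-theta* entry also holds the non-coding RNA gene *CR44822*. It gave this joint entry 0.588 FPKM in eworo legs, against 0.779 FPKM in OreR legs. The larger of 2 *DIP-eta* entries had 3.95 FPKM in eworo legs, against 3.90 FPKM in OreR legs. The large gap of *DIP-theta* in the library values is thus not seen in the Cuffdiff values.

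The 18 members at or below 1 FPKM in both strains were *DIP-beta*, *DIP-gamma*, *DIP-delta*, *DIP-zeta* and 14 *dpr* genes. These 4 *DIP* genes did not exceed 0.0878 FPKM as a mean in eworo or 0.0866 FPKM in OreR. *DIP-gamma* is known from a class of motor neurons and from neurons of the fly's visual system, and its Dpr group, *dpr11*, *dpr15*, *dpr16* and *dpr17*, had means of at most 0.258 FPKM in eworo legs, against 0.308 FPKM in OreR legs. *dpr1*, the founding gene of the family, first known from flies that lost the aversion to salt, had 0.117, 0.659 and 0.260 FPKM in eworo legs, against 0.720, 0.381 and 0.558 FPKM in OreR legs. *dpr3* had its highest value, 1.16 FPKM, in OreR replicate 1, where its entry was joined with *CG4259*. In the fit without a limit on the mean, *dpr20* was the only one of these members with a single entry name to pass, and the next lowest adjusted p was 0.446 for *dpr15* (limma). Values this low come with no read counts, so the size of a difference that could have been detected among them is unknown.

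Arranged by binding group, few groups had both a DIP and a Dpr above 1 FPKM. The groups follow general knowledge of which proteins bind, and bulk values do not show whether partners are made by cells that touch. Of 6 groups, 2 had both sides above 1 FPKM in eworo and 2 in OreR, the *DIP-alpha* group and the group of *DIP-epsilon* and *DIP-zeta*. At a limit of 2 FPKM this fell to 1 group in eworo, that of *DIP-epsilon*, and stayed at 2 in OreR. The *DIP-alpha* group owes its DIP side to the entry shared with *CG2875* and its Dpr side to *dpr10*, as *dpr6* was at 0.0802 FPKM in eworo legs, against 0.0777 FPKM in OreR legs.

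In the *DIP-epsilon* group both strains had *DIP-epsilon* and *dpr19*. In eworo *dpr14* was present as well, with a mean of 13.2 FPKM that exceeded the 4.09 FPKM of *dpr19*. In OreR *dpr19*, with a mean of 5.32 FPKM, was the only Dpr gene of the group above 1 FPKM. *DIP-zeta*, the other receptor of the group, averaged 0.0266 FPKM in eworo legs, against 0.0223 FPKM in OreR legs.

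In each of the other groups at least one side was missing at 1 FPKM. *DIP-iota* and *DIP-eta* were well above the limit, but their partners *dpr1* to *dpr5* had means of at most 0.510 FPKM in eworo legs, against 0.649 FPKM in OreR legs. *DIP-beta* averaged 0.0544 FPKM in eworo legs, against 0.0487 FPKM in OreR legs, while its partner *dpr21* averaged 2.69 FPKM in eworo legs, against 1.48 FPKM in OreR legs. *DIP-delta* averaged 0.0878 FPKM in eworo legs, against 0.0653 FPKM in OreR legs, beside *dpr12* at 0.992 FPKM in eworo legs, against 1.51 FPKM in OreR legs. *dpr12* and *dpr9* were above the limit in OreR and just under it in eworo, where *dpr9* averaged 0.990 FPKM, against 1.11 FPKM in OreR legs. Neither side was above the limit in the *DIP-gamma* group in both strains and in the *DIP-delta* group in eworo.

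**Figure D4:**
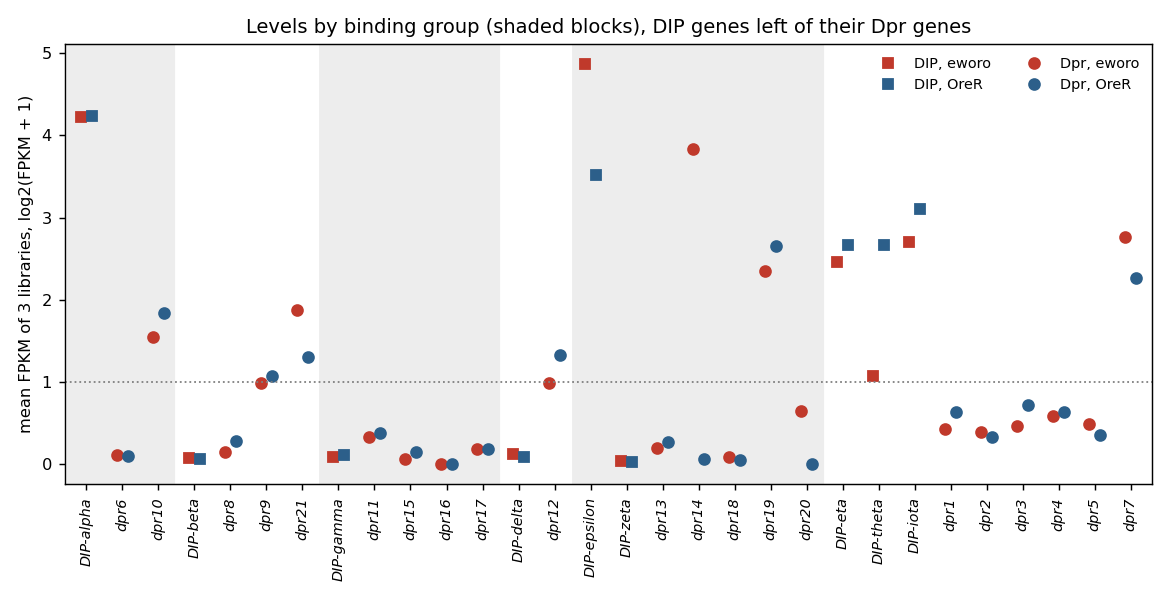
Mean level of the 30 members on the log2(FPKM + 1) scale, arranged in 6 binding groups (alternating shaded blocks) with *DIP* genes (squares) left of their *dpr* genes (circles), eworo in red and OreR in blue. *dpr7* stands alone at the right, the dotted line marks 1 FPKM, and the eworo value of *DIP-epsilon* includes the joined entry of 72.7 FPKM.

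In the Beat and Side families all 22 listed genes were found and 8 were above 1 FPKM in both strains. Of 7 compared, 0 were higher in eworo and 1 was lower, *beat-IIa*, beside 0.908% lower among all entries, and the median log2(FPKM + 1) difference of the 7 was -0.26 against -0.01 over all entries. *beat-IIa* had 7.60, 8.13 and 8.56 FPKM in eworo legs, against 13.1, 14.8 and 14.8 FPKM in OreR legs (difference -0.74 ± 0.11 SE, adjusted p = 0.0342 by limma), with no overlap. The most abundant gene of these families, *beat-IIb*, had 24.7, 29.2 and 25.5 FPKM in eworo legs, against 23.9, 25.3 and 26.1 FPKM in OreR legs. A list of 28 other surface immunoglobulin genes was drawn up for neurons, but some of them are also counted as glial or muscle markers below. Of the 28, 23 were above 1 FPKM in both strains, and none of the 15 compared passed at the adjusted threshold. At an unadjusted p under 0.05 by limma 1 of the 15 passed, beside 15.3% of all entries. Their median log2(FPKM + 1) difference was -0.40, with 2 of 15 above 0, against -0.01 over all entries. Among them *Fas3*, a homophilic adhesion protein, had 147.3, 226.7 and 229.2 FPKM in eworo legs, against 260.0, 241.3 and 269.8 FPKM in OreR legs.

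Markers of the cell types known to use Dpr and DIP proteins were present in both strains. The 12 muscle markers, among them the transcription factor gene *Mef2*, all had a mean of the 3 libraries above 1 FPKM in both strains. Their sums were 198.0 to 645.8 FPKM in eworo and 259.0 to 553.8 FPKM in OreR. *Mhc* passed 1 FPKM in eworo only through replicate 2, with 0.472, 47.6 and 0.969 FPKM. Cuffdiff gave *Mhc* 0.414 FPKM in eworo legs, against 2.90 FPKM in OreR legs. Of 12 neuronal markers 5 were above 1 FPKM in both strains, with sums of 52.1 to 83.4 FPKM in eworo and 54.9 to 101.3 FPKM in OreR. The glial gene *repo* had 6.98, 6.53 and 5.71 FPKM in eworo legs, against 7.50, 8.85 and 7.65 FPKM in OreR legs. These sums include joined entries. In the muscle sum *Tm2* had 5.52, 287.6 and 188.2 FPKM in eworo legs, against 6.82, 208.8 and 288.3 FPKM in OreR legs. Cuffdiff gave *Tm2* 3.62 FPKM in eworo legs, against 4.49 FPKM in OreR legs. Much of the neuronal sum is *nSyb*, at 44.7 to 49.3 FPKM in eworo and 42.7 to 45.5 FPKM in OreR, for which Cuffdiff gave 11.3 FPKM in eworo legs, against 13.3 FPKM in OreR legs. The sums of muscle and of neurons overlapped between the strains, and the values of *repo* did not, with eworo below OreR. The glial gene *wrapper* went the other way, with 29.6 to 36.2 FPKM in eworo and 23.3 to 29.1 FPKM in OreR. Of the 3 glial markers compared, *repo* among them, 2 had a difference above 0 and 0 passed. Their median log2(FPKM + 1) difference was 0.06. The part of such differences in the members' values was not tested. The pan-neuronal *elav* was listed at 0 in eworo replicate 1 and had 16.6 and 6.74 FPKM in the other eworo libraries, against 5.52, 2.81 and 12.3 FPKM in OreR. Of 5 neuronal markers compared, 1 was called lower, *Appl*, listed at 0 in all 3 eworo libraries against 22.5, 4.23 and 19.4 FPKM in OreR (adjusted p = 0.0438 by limma). Cuffdiff gave *Appl* 10.9 FPKM in eworo legs, against 13.3 FPKM in OreR legs.

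Open chromatin in the member genes was sparse for their length, as described here by counts with no test. The authors called peaks once per strain on pooled reads, so the replicates cannot be compared, and 44398 peaks were listed for eworo and 42015 for OreR. With the summit inside the gene span, the members held 128 peaks in eworo and 99 in OreR. At least 1 peak lay in 23 of 30 members (76.7%) in eworo and in 25 (83.3%) in OreR. Over all protein-coding genes on the chromosome arms the share was 57.8% in eworo and 56.3% in OreR. It was 95.9% in eworo and 95.5% in OreR for the 1776 genes at least as long as the members' lower quartile. The members' share includes members shorter than that, so it is not matched in length to these long genes. Per 10 kb of span the members had 1.10 peaks in eworo and 0.853 in OreR. The long genes had 2.90 in eworo and 2.71 in OreR, and all protein-coding genes had 3.23 in eworo and 3.05 in OreR. The 12 members above 1 FPKM in either strain had 1.15 peaks per 10 kb in eworo and 1.11 in OreR, and the 18 others had 1.08 in eworo and 0.717 in OreR.

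Peaks at the ends of genes were counted next. A peak within 500 bp of an end of the gene span was found for 17 members (56.7%) in eworo and 15 (50.0%) in OreR. The share was 82.9% in eworo and 82.1% in OreR for the long genes. For all protein-coding genes it was 71.1% in eworo and 69.2% in OreR. *dpr5*, *dpr7* and *dpr15* had no peak inside the span or within 500 bp of it in either strain, although *dpr7* averaged 5.80 FPKM in eworo legs, against 3.82 FPKM in OreR legs. *dpr19* had strong peaks just outside both ends, with pileups of 67 and 62 tags in eworo and 75 and 66 tags in OreR. These summits lie within 500 bp of an end of *CG33303* or *gny* as well, so they cannot be assigned to *dpr19*.

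The peaks were spread unevenly over the members. *dpr6*, the longest member at 164710 bp, had 17 peaks in eworo and 8 in OreR, *DIP-alpha* had 15 in eworo and 11 in OreR, and *dpr12* had 11 in eworo and 13 in OreR. *dpr1* had 12 in eworo and 7 in OreR, and *dpr11* had 11 in eworo and 5 in OreR. *dpr8*, at 140126 bp, had 2 in each strain. The highest peaks inside a member, with a pileup of 84 tags in eworo and 80 tags in OreR, lay in *DIP-alpha* near the ends of a non-coding RNA gene, *CR34335*, within its span. *CR34335* itself, named *MRE16* in the files, had 4693 to 6593 FPKM in eworo and 3496 to 4777 FPKM in OreR.

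**Figure D5:**
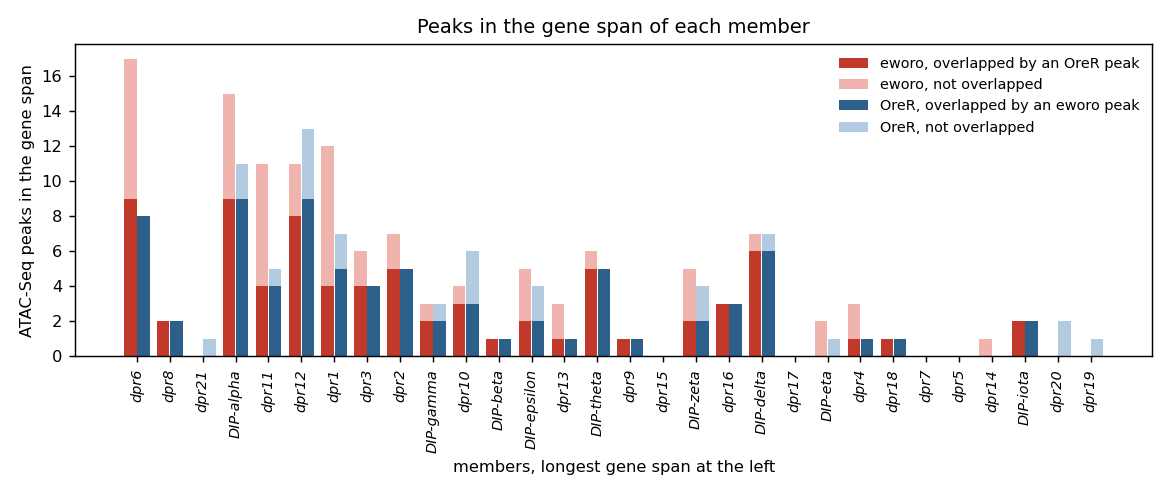
Number of ATAC-Seq peaks with the summit in the gene span of each member, eworo (red) left of OreR (blue), split into peaks overlapped by a peak of the other strain (dark) and not overlapped (pale). Members run from the longest gene span at the left to the shortest at the right, and *dpr6* has 17 peaks in eworo and 8 in OreR.

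The share of peaks found in both strains was smaller for the members than for all peaks, and so was their height. In eworo 75 of 128 member peaks were overlapped by an OreR peak by at least 1 bp (58.6%, 95% Wilson interval 49.9 to 66.8%), against 81.8% of all eworo peaks. In OreR 76 of 99 were overlapped by an eworo peak (76.8%, 67.5 to 84.0%), against 86.8% of all OreR peaks. The member peaks were lower, with a median pileup of 48 tags in eworo and 50 in OreR, beside 59 in eworo and 61 in OreR over all peaks. Among eworo peaks under 50 tags, 38.7% of 75 member peaks were overlapped (28.5 to 50.0%), against 50.3% of all. Among OreR peaks under 50 tags the shares were 57.8% of 45 member peaks (43.3 to 71.0%) and 57.3% of all. From 50 tags on, 86.8% of 53 member peaks in eworo (75.2 to 93.5%) and 92.6% of 54 in OreR (82.4 to 97.1%) were overlapped, against 90.3% of all in eworo and 92.2% of all in OreR. Within these height classes the intervals thus held the share of all peaks, except for eworo peaks under 50 tags, where the upper end lay just below it. Intervals cover counting error only.

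Where a member peak was shared, its height was alike in both strains. The 75 pairs had a median log2 ratio of eworo to OreR pileup of 0.02, with the 10th and 90th percentiles at -0.17 and 0.12, and over all 36211 pairs the median was -0.02. The highest member peak without an overlap was in *dpr10*, in OreR only, with 62 tags. In eworo it was in *dpr1*, with 56 tags.

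At *dpr14* the peak lists differed as well, but at low heights. eworo had a peak inside the gene, on chromosome X from 7906811 to 7906885 with a pileup of 46 tags, and another 124 bp beyond its end, from 7908386 to 7908436 with 44 tags. OreR had neither. Of all eworo peaks 11.9% were as low as 46 tags or lower, and 6.44% were as low as 44. At *dpr20* the pattern ran the other way, with 2 peaks inside the gene in OreR, of 48 and 45 tags, and 0 in eworo, and a shared peak 496 bp beyond the end with 53 tags in eworo and 54 in OreR. With 1 list per strain and heights near the lowest listed (39 tags in eworo and 41 in OreR), neither difference has a replicate check.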

How the data were processed

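RNA-Seq and ATAC-Seq of T2 legs from eworo and OreR were analysed from the deposited files. For RNA the authors aligned reads with TopHat2 (2.1.1) and deposited FPKM per library from Cufflinks (2.2.1 in the submitters' processing notes), unscaled between libraries, and FPKM per strain from Cuffdiff. Columns of the authors' own test were not used. For ATAC-Seq the authors deposited MACS2 peaks per strain from pooled reads without a control, with the signal (pileup of tags at the summit), the fold ratio over background and -log10 q-values. The eworo and OreR lists rest on 53862732 and 56972082 tags after filtering.

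The fit used limma 3.58.1 in R 4.3.3 (lmFit, eBayes with trend, strain only) on log2(FPKM + 1). Libraries were divided by their median ratio to the geometric mean. Entries needed 1 name in all 6 libraries (11903) and a mean above 1 FPKM (4848), and the Benjamini-Hochberg threshold was 0.05. Differences on this scale understate changes of low genes. For counts of levels each symbol took the value of its entry. Where Cuffdiff had several entries of a gene, the highest was used. The fit and the peak overlaps were tested on simulated data.

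Gene spans come from RefSeq for Release 6, matched by symbol for all 30 members. It was used without strand or transcript starts, so peaks were set against both span ends (500 bp) instead of starts. Python 3.11.15, numpy 2.4.6, pandas 2.3.3, scipy 1.17.1 and matplotlib 3.10.9 were used. The members, binding groups and lists were chosen with earlier results of these data known. All members are accounted for: those above 1 FPKM in a strain by each library, the rest by range. From other lists up to 4 genes could be named, with called genes given priority and the rest taken by abundance. *repo* and *elav* were added as defining markers after their values were seen, as were the neighbours of members. The glial genes *gcm* and *moody* were also added after their values were seen. Alternatives covered the pseudocount, scaling, filters, entry naming, zeros, the block, the trend, each left-out library, the peak threshold, the span and the overlap. Libraries with the same replicate number did not deviate together (r of -0.04, -0.11 and 0.05).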

Additional observations from a re-analysis of the deposited data

How the results depend on the processing

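Of 125 differences of single compared members under alternatives, 118 kept their direction and their side of the threshold. The 3 that lost the call were all of *dpr14*: zeros as missing (3.53, adjusted p = 0.0581 by limma), without eworo replicate 3 (3.60, 0.056) and the replicate block (3.67, 0.0782). In the block, which pairs libraries that share only a number, the count of members higher in eworo was 0, and over all entries 14 were higher and 13 lower, against 84 and 44 in the reported fit. The joint entry of *CG2875* and *DIP-alpha* changed sign with upper quartile scaling (0.14) and without a single library (-0.0327 to 0.0361, with 0.0361 without eworo replicate 3 and 0.0168 without OreR replicate 3), and *dpr9* without eworo replicate 1 (-0.36 to 0.18 over left-out libraries). None of these was near the threshold.

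Without a filter 2 members were higher, *dpr14* and *dpr20*, and with zeros as missing 0 were. Leaving out single libraries gave 0 to 1 members higher, 37 to 93 entries higher and 23 to 60 lower, and 2 to 4 members without overlap. With every symbol taking the value of its entry 70 were lower. A limit of 2 FPKM left 1 binding group with both sides in eworo. This limit, one of 0.5 FPKM for binding groups, and the levels from entries naming a member alone were chosen after seeing the data. With spans widened by 5 kb members held 205 peaks in eworo and 170 in OreR, and 66.8% of the eworo peaks were overlapped. With -log10 q of at least 10 there were 8 peaks in eworo and 7 in OreR. With a reciprocal overlap of 50% the shares were 48.4% in eworo and 62.6% in OreR. The cause of these changes was not tested beyond the stricter construction. FPKM come without read counts here, so the depth behind the low members is unknown.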

Other observations

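RefSeq names 2 further genes as family members that the files list under older symbols and that the naming rule did not reach. *CG31814* (*DIP-kappa*) had 0.197, 0.441 and 0.303 FPKM in eworo legs, against 0.422, 0.367 and 0.394 FPKM in OreR legs, and its values overlapped. *CG45781* (*DIP-lambda*) had 0.00771, 0.0977 and 0.0324 FPKM in eworo legs, against 0.428, 0.335 and 0.324 FPKM in OreR legs, without overlap. Of all compared entries 10.4% had eworo below OreR without overlap, but these all had a mean above 1 FPKM. Both were under the limit of the comparison and were not tested.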
